A study of Mus musculus with 6 samples.

Results

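Disease-associated microglia genes are a set of transcripts that microglia, the resident macrophages of the brain, switch on around amyloid plaques, dying neurons and damaged myelin, and that also mark a transient group of microglia in the early postnatal brain. The set followed here has 10 members, chosen by gene symbol among the 56884 genes of the deposited tables. Clec7a, Itgax, Cst7, Lpl, Spp1 and Gpnmb are described as genes that the program switches on, Trem2 and Tyrobp form the receptor and adaptor on which the full program depends in mouse models of Alzheimer disease, and Apoe and Cd52 are expressed by microglia at baseline and increase in the disease-associated state.

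The members were examined in the cerebral cortex of mice at P12, with the meninges removed. The Nodal iPCKO library came from mice in which the TGFβ family ligand Nodal had been deleted with the tamoxifen-inducible Pdgfrb(BAC)-CreERT2 transgene, which acts in pericytes and other Pdgfrb-expressing mural cells. The control library came from Nodal lox/lox littermates without the transgene, and both genotypes were given 3 injections on P1 to P3, each with 50 µg of tamoxifen. Each library pooled 2 mice and each genotype had 1 library, so no comparison below has a replicate, no p-value is given, and animal, batch and genotype cannot be told apart. Sex was not given per library.

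Of the barcodes in the deposited tables, 3237 control and 5008 iPCKO barcodes held at least 1500 unique molecular identifiers (UMIs, each standing for 1 captured transcript). Microglia were the 906 control and 1462 iPCKO barcodes with a UMI of at least 4 of the 7 genes Csf1r, C1qa, Cx3cr1, Tmem119, P2ry12, Siglech and Selplg, which made 28.0 and 29.2% of barcodes, and all 7 were found in 785 and 1172 of them. Median depth was 6232.5 and 6496 UMIs per microglia, and the cells held 6014843 and 10455548 UMIs in all. Of the 7 genes of the rule, 6 were lower in iPCKO microglia, from a log2 ratio of -0.27 for Csf1r to -0.65 for P2ry12, while C1qa was at 0.06. In mural cells Nodal itself had 169 UMIs, or 72.4 CPM (counts scaled to a total of 1000000 UMIs in the same cells), in the control library and 0 UMIs in 514 iPCKO cells, which at 95% confidence allows up to 1.12 CPM. The libraries shared 21 of these barcodes, against 17.8 if barcodes had been drawn independently.

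Microglia of the iPCKO library held more RNA of 6 of the 10 members by at least 2-fold, namely Itgax (9.58-fold), Cst7 (4.79-fold), Clec7a (4.50-fold), Cd52 (3.10-fold), Lpl (2.29-fold) and Spp1 (2.05-fold). Among all 17762 genes with at least 10 UMIs in microglia of both libraries together, 5.42% were at least 2-fold higher and 5.42% at least 2-fold lower. Trem2, Tyrobp and Apoe stood within 1.1-fold of the control library. Gpnmb was nearly undetected in both.

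The members lie on 7 chromosomes, and their identifiers in the files matched those of the Gencode M39 annotation of GRCm39 in 10 of 10 cases apart from version numbers. Promoters are shown for 3 members with large differences between the libraries, Itgax, Clec7a and Cst7, and for Trem2, which had none, since these genes share a cell type and differ in response. Each is the 250 bases before a RefSeq start site of the GRCm38.p6 build, 5′ to 3′ on the strand of the gene, placed on GRCm39 by exact match, and capitals mark letters of any of 3 searched motifs, on either strand.
Itgax, chr7:127728472-127728721, plus strand: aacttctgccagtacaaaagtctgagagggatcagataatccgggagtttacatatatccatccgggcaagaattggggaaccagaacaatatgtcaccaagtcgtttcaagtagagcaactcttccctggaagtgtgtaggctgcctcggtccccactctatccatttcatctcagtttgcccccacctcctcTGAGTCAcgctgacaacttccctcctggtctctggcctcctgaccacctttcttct
Clec7a, chr6:129449743-129449992, minus strand: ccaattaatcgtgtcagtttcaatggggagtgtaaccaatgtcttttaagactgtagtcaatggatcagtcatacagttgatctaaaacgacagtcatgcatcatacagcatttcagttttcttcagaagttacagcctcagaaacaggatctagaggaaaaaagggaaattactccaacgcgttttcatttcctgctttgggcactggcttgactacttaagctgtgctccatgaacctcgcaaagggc
Cst7, chr2:150412085-150412334, plus strand: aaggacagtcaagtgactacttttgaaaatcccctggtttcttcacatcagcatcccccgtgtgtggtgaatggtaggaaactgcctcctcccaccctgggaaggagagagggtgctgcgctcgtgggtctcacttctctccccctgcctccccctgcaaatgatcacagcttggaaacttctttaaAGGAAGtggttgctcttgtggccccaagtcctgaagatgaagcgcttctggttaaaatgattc
Trem2, chr17:48653179-48653428, plus strand: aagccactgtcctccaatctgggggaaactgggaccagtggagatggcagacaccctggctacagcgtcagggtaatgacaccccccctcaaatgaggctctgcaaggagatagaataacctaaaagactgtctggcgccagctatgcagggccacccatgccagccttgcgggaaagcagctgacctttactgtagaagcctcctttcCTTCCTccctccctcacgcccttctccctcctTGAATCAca

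The motifs were AGGAAG, a sequence bound by the myeloid factor PU.1, TGANTCA, bound by AP-1 factors, and the E-box CACGTG, bound by the lysosomal regulators MITF and TFEB among others. The AP-1-type letters stood 56 bases before the Itgax start and 9 bases before the Trem2 start. The PU.1-type letters stood 63 bases before the Cst7 start and, as CTTCCT on the opposite strand, 41 bases before the Trem2 start. No searched letters were in the Clec7a window, and CACGTG was in none of the 11 windows of the 7 members found in the table, which also held Spp1, Apoe and Gpnmb. Of 32817 promoter windows of the same length, 29.5% held AGGAAG, 6.75% TGANTCA and 6.02% CACGTG, so these matches describe the sequences without marking a bound site.

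The first group of members comprises surface molecules that read the surroundings of the cell. Itgax (ENSMUSG00000030789, chromosome 7 from 127728668 to 127749829) encodes CD11c, the alpha chain of a complement receptor integrin. Its level in microglia was 5.32 CPM (32 UMIs, exact Poisson 95% interval 3.64 to 7.51) in the control and 51.0 CPM (533 UMIs, 46.7 to 55.5) in the iPCKO library, a log2 ratio of 3.26 with an exact interval of 2.75 to 3.82. This was rank 18 of the 12147 genes with at least 50 UMIs, ordered by ratio. The intervals here and below cover counting error only.

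Clec7a (ENSMUSG00000079293, chromosome 6 from 129438554 to 129449742) encodes dectin-1, a receptor for fungal beta-glucans. Its 38 control UMIs gave 6.37 CPM and its 297 iPCKO UMIs 28.4 CPM, a log2 ratio of 2.17 (1.68 to 2.7). The control value rested on few cells with a mixed profile. Of its 38 UMIs, 23 came from the 34 microglia that also held at least 3 of the 7 border macrophage markers Mrc1, Pf4, Lyve1, Cd163, F13a1, Ms4a7 and Cbr2, against 33 of 297 in 29 such iPCKO cells. Without these cells the log2 ratio was 3.30. In cells with all 7 microglia markers Clec7a had 7 control UMIs (1.39 CPM) and 176 iPCKO UMIs (20.1 CPM), so it was higher in the iPCKO library also among the cells with the most complete microglia profile. In barcodes with 10 to 99 UMIs, which hold free RNA, Clec7a was at 1.44 CPM (2 UMIs, 0.174 to 5.2) in the control and 9.37 CPM (24 UMIs, 6.13 to 14.2) in the iPCKO library. That iPCKO level lay below the 28.4 CPM of iPCKO microglia and above the 6.37 CPM of control microglia, with overlapping intervals for the latter, and its part in the microglia value was not tested.

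Trem2 (ENSMUSG00000023992, chromosome 17 from 48653429 to 48661175), a lipid-sensing receptor, and Tyrobp (ENSMUSG00000030579, chromosome 7 from 30113170 to 30117010), which encodes its signalling adaptor DAP12, were both abundant and level. Trem2 had 828 CPM in control and 807 CPM in iPCKO microglia, a log2 ratio of -0.04 (-0.09 to 0.01). Tyrobp had 1520.7 and 1583.8 CPM, a log2 ratio of 0.06 (0.02 to 0.10). With 4983 and 8436 UMIs of Trem2 the counting interval leaves out any difference of 2-fold.

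**Figure D1:**
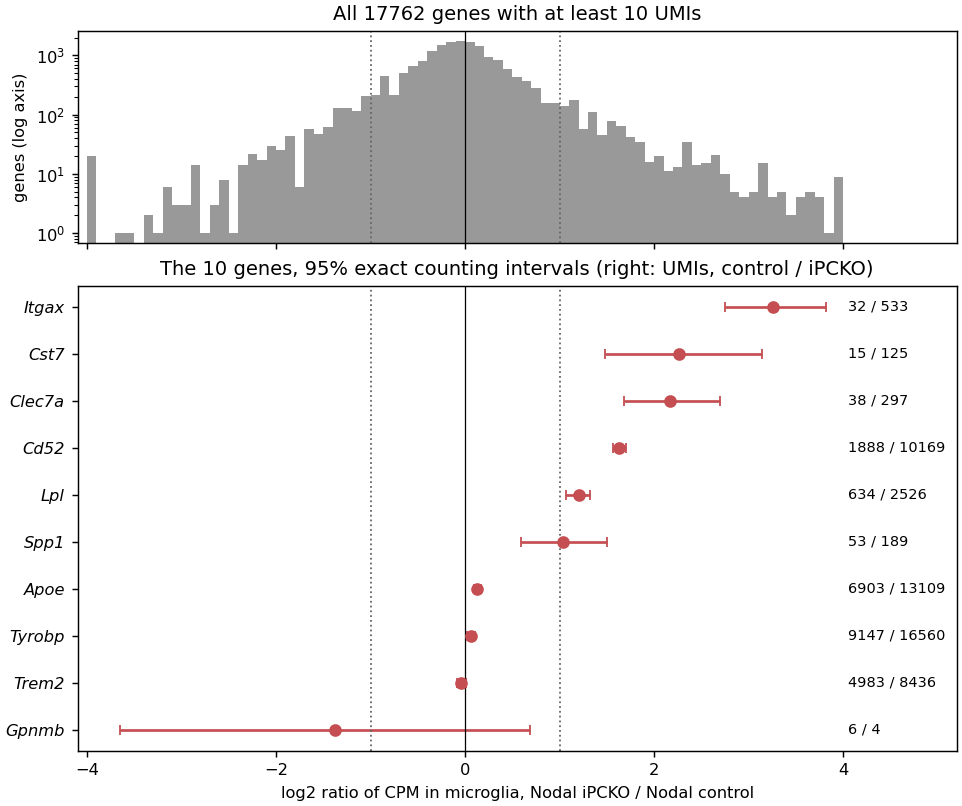
Lower panel, log2 ratio of CPM in microglia (Nodal iPCKO over Nodal control, 1 library each) for the 10 genes, with exact 95% counting intervals and the UMIs of both libraries at the right. Upper panel, the same ratio for all 17762 genes with at least 10 UMIs, values beyond 4 placed in the last bars and the count on a log axis. Dotted lines mark 2-fold. Itgax, Cst7, Clec7a, Cd52, Lpl and Spp1 lie at or right of the upper line, Apoe, Tyrobp and Trem2 near 0, and Gpnmb rests on 10 UMIs.

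Cd52 (ENSMUSG00000000682, chromosome 4 from 133809759 to 133822401) encodes a small glycosylphosphatidylinositol-anchored glycoprotein of leukocytes. It had 314 CPM (1888 UMIs) in control and 973 CPM (10169 UMIs) in iPCKO microglia, a log2 ratio of 1.63 (1.56 to 1.70). It is the member with the largest gain in RNA, in absolute terms, and its difference was also present in cells without a detected UMI of the 6 genes Clec7a, Itgax, Cst7, Lpl, Spp1 and Gpnmb. In these microglia, after thinning to 3000 UMIs as described below, Cd52 had 258 and 735 CPM, a log2 ratio of 1.51 (1.38 to 1.65), beside 1.57 (1.36 to 1.80) in those with at least 1 of them. A cell without a detected UMI may still express these genes, since at least 1 of the 6 was found in 31.5% of iPCKO microglia at 3000 UMIs and in 45.6% as counted. Cd52 was also higher in barcodes with 10 to 99 UMIs, at 47.5 and 111 CPM, and in astrocytes at 1.64 and 4.40 CPM. Both levels lay below those of microglia of the same library.

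Among the secreted and intracellular proteins, Cst7 (ENSMUSG00000068129, chromosome 2 from 150412284 to 150420864) encodes cystatin F, an inhibitor of lysosomal cysteine proteases. It had 15 UMIs (2.49 CPM) in control and 125 UMIs (12 CPM) in iPCKO microglia, a log2 ratio of 2.26 (1.48 to 3.14). Spp1 (ENSMUSG00000029304, chromosome 5 from 104582165 to 104589235), which encodes the phosphoprotein osteopontin, had 53 UMIs (8.81 CPM) and 189 UMIs (18.1 CPM), a log2 ratio of 1.04 (0.59 to 1.5) whose interval crosses 2-fold. Without the 31 control and 56 iPCKO microglia that also carried markers of another class, which are candidates for doublets, the Spp1 ratio was 0.97 and no longer reached 2-fold. Gpnmb (ENSMUSG00000029816, chromosome 6 from 49013426 to 49047863), a lysosomal membrane glycoprotein and a late gene of the program, had 6 and 4 UMIs, 0.914 and 0.383 CPM, with a log2 interval of -3.65 to 0.69. No direction can be read for it at this depth.

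The remaining members act on lipids. Lpl (ENSMUSG00000015568, chromosome 8 from 69284603 to 69360100) encodes lipoprotein lipase. It had 105 CPM (634 UMIs) in control and 242 CPM (2526 UMIs) in iPCKO microglia, a log2 ratio of 1.20 (1.07 to 1.32). Apoe (ENSMUSG00000002985, chromosome 7 from 19430034 to 19434947), the lipid-carrying apolipoprotein E, had 1147.7 and 1253.8 CPM, a log2 ratio of 0.13 (0.09 to 0.17). The Apoe value was split unevenly over the cells. The microglia with border macrophage markers, 3.75% of control and 1.98% of iPCKO microglia, held 2346 of 6903 and 2471 of 13109 Apoe UMIs at 8317.2 and 10687.1 CPM. Without them the log2 ratio of Apoe was 0.39, still far below 2-fold.

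All 7 border macrophage markers were lower in the iPCKO microglia, with summed levels of 491 and 251 CPM and none at 0. The intervals of all 7 lay below 0, beside 16.4% of all genes, and 3 were at least 2-fold lower, beside 5.42%. Microglia with at least 3 of these markers held no Itgax UMI in either library (0 of 34 and 0 of 29 cells, exact upper limits 10.3 and 11.9%). Their Cd52 level was alike, at 333 and 350 CPM. Leaving them out kept the same 6 members above 2-fold. So did a rule without Tmem119, P2ry12, Siglech and Selplg, genes that are low in disease-associated microglia and that were lower in the iPCKO library. That rule took 885 and 1454 cells with at least 3 of Csf1r, C1qa, C1qb, C1qc and Laptm5 and fewer than 3 border macrophage markers, and gave log2 ratios of 2.98 for Clec7a and 0.43 for Apoe.

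The share of microglia with a UMI showed how the RNA was spread. Shares were compared after each cell had been thinned to 3000 UMIs, which kept 870 control and 1392 iPCKO microglia and left out 36 and 70. Itgax was found in 0.805% (7 cells, exact 95% interval 0.324 to 1.65) of control and 7.76% (108 cells, 6.41 to 9.29) of iPCKO microglia. Clec7a was found in 1.84 and 4.02%, Cst7 in 0.575 and 2.23%, Spp1 in 1.03 and 1.94% and Lpl in 15.3 and 24.5%. The intervals of both libraries overlap for Spp1 (0.474 to 1.95 and 1.28 to 2.81) and nearly meet for Clec7a (1.05 to 2.97 and 3.05 to 5.19). How often such intervals lie apart over all genes was not counted. Without thinning, Itgax was found in 2.32 and 13.7%, Clec7a in 1.99 and 6.16% and Lpl in 24.3 and 36.0%.

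At the same thinning, Cd52 was found in 45.7 and 79.6% of microglia and Apoe in 65.2 and 72.6%, while Trem2 was found in 88.0 and 87.9% and Tyrobp in 97.0 and 97.7%. In cells with a Cd52 UMI the mean was 1.87 UMIs in the control and 3.34 in the iPCKO library. Both the share and this mean rise with the level of a gene. They therefore do not separate more expressing cells from more RNA per cell. For Itgax the mean in cells with a UMI was 1.14 and 1.5, for Cst7 1 and 1.16 and for Lpl 1.80 and 2.58. The highest Lpl count of a thinned cell was 40 UMIs in the iPCKO and 7 in the control library. As background, in thinned endothelial cells, which should lack most of these transcripts, Itgax was found in 0.138 and 0.152%, Cst7 in 0 and 0% (exact upper limits 0.509 and 0.279%), Cd52 in 0.415 and 0.986% and Trem2 in 0.138 and 0.152% of 723 and 1318 cells. Clec7a was found in 0.277 and 0.0759% of them, Tyrobp in 0.692 and 1.21% and Spp1 in none. Background was not negligible for the lipid genes, with Lpl in 1.24 and 2.88% and Apoe in 38.0 and 42.2% of endothelial cells, so the Apoe shares of microglia cannot be read as shares of expressing cells. The interval of the Itgax share of control microglia, 0.324 to 1.65%, lay above both endothelial shares but overlapped their intervals.

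**Figure D2:**
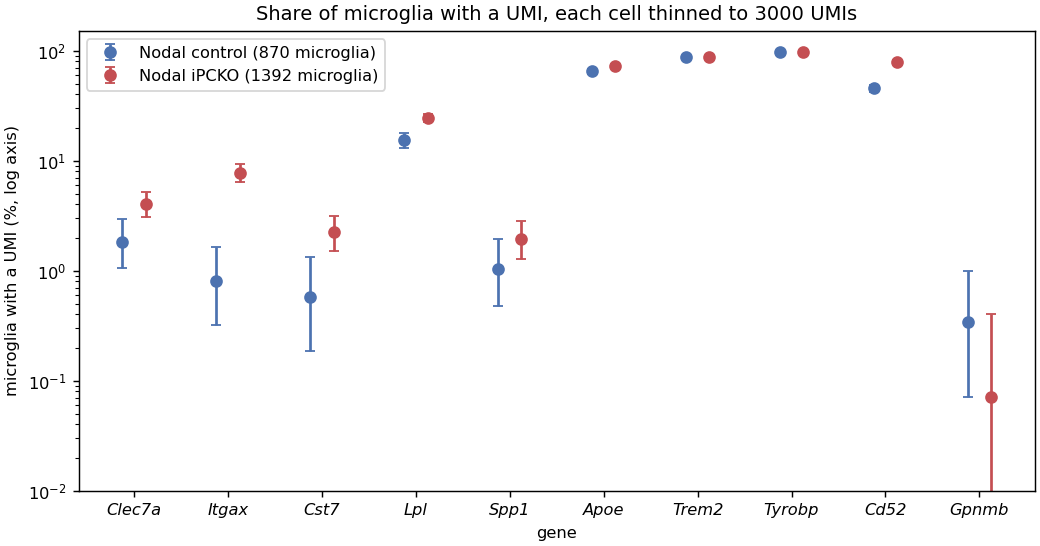
Share of microglia with at least 1 UMI (percent, log axis) for each gene after thinning every cell to 3000 UMIs, with exact 95% intervals, for 870 Nodal control and 1392 Nodal iPCKO microglia. Itgax moves from 0.805 to 7.76% and Cd52 from 45.7 to 79.6%, whereas Trem2 and Tyrobp stay at 88.0 and 87.9% and at 97.0 and 97.7%. The lower end of the Gpnmb interval in the iPCKO library falls below the axis.

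The next comparison asked whether the members occurred in the same cells. Clec7a, Itgax, Cst7, Lpl, Spp1 and Gpnmb were counted together as a module of 6 genes, in which Lpl was already found in 24.3% of control microglia without thinning and Gpnmb was nearly undetected. At least 1 of the 6 was found in 18.3% of control and 31.5% of iPCKO microglia at 3000 UMIs. At least 2 were found in 12 of 870 control microglia (1.38%, 0.715 to 2.4) and 94 of 1392 iPCKO microglia (6.75%, 5.49 to 8.20). This share also rises where the single genes are found in more cells. The difference between the libraries therefore does not by itself show more co-occurrence, and pairs are compared with independence below. Other draws of the thinning, added after the data were seen, gave 7 to 12 control and 92 to 101 iPCKO cells. Leaving out barcodes over 15% mitochondrial UMIs gave 0.692 and 6.99%, and leaving out doublet candidates 0.714 and 6.41% of microglia. At least 3 were found in 2 and 27 cells, and 4 in 0 and 5. Lpl alone accounted for most cells with 1 gene. Without it, at least 1 of the other 5 was found in 4.14 and 12.7% of microglia, a split added after the data were seen.

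**Figure D3:**
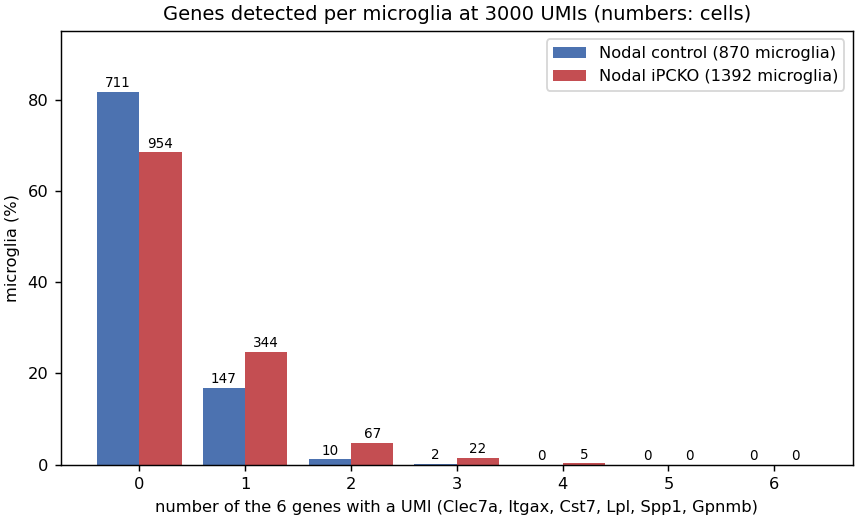
Number of the 6 genes Clec7a, Itgax, Cst7, Lpl, Spp1 and Gpnmb with a UMI per microglia at 3000 UMIs, as percent of 870 Nodal control and 1392 Nodal iPCKO microglia, with the number of cells above each bar. None of the 6 is found in 711 and 954 cells, and the bars for 2, 3 and 4 genes hold 10, 2 and 0 control and 67, 22 and 5 iPCKO cells.

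In the iPCKO library some of the other members were found more often in cells with Itgax than in cells without it. Among 108 microglia with Itgax, Clec7a was found in 21.3% (14.0 to 30.2), against 2.57% (1.78 to 3.59) of the 1284 without. Cst7 was found in 11.1 and 1.48%, Spp1 in 8.33 and 1.40%, Lpl in 48.1 and 22.5% and Cd52 in 96.3 and 78.2%. Of 9579 genes found in at least 2% of the thinned iPCKO microglia, 2.4% were found at least 2 times as often in cells with Itgax as in cells without, with a median ratio of 0.959. The ratios were 8.29 for Clec7a, 7.51 for Cst7, 2.14 for Lpl and 1.23 for Cd52. Spp1 had a ratio of 5.94 but, found in 1.94% of these microglia, was not among the 9579 genes. Apoe, Trem2 and Tyrobp had ratios of 1.02, 1 and 1. These 3 genes were found in 72.6, 87.9 and 97.7% of the iPCKO microglia, which leaves little room for a higher ratio. The same holds for Cd52, so the low ratios of these genes do not show that they vary independently of Itgax.

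Cells with Lpl showed a weaker form of the same pattern. Among 341 of them, Clec7a was found in 9.09% against 2.38%, Itgax in 15.2 against 5.33%, Cst7 in 4.40 against 1.52% and Spp1 in 3.23 against 1.52%. Of 9579 genes found in at least 2% of these microglia, 0.95% were found at least 2 times as often in cells with Lpl as in cells without. Clec7a and Cst7 met in only 2 cells against 1.25 if independent, at 3000 UMIs, and in 16 against 5.48 without thinning. All 14 pairs of Clec7a, Itgax, Cst7, Lpl, Spp1 and Cd52 with an expected number of at least 1 cell exceeded it in the iPCKO library, 5 of them at least 2 times, with a median of 1.81 times. In the control library 8 pairs could be read, 8 exceeded the expected number, and the median was 1.48. The genes of this set are the same members that were at least 2-fold higher in iPCKO microglia, with Cd52 and without Gpnmb. How often pairs of genes outside the 10 members exceed the expected number was not counted, so these pair counts have no background over all genes. Over all pairs of the 10 members, 28 of 35 in the iPCKO and 28 of 33 in the control library exceeded the expected number, with a median of 1.03 times in both. Pairs with Trem2 or Tyrobp have little room above the expected number, since most microglia held these genes. None of the 16 control cells with Clec7a held Itgax, where 0.129 were expected, so the control library is too shallow for that pair. These counts describe cells of 1 library each, which share animals and preparation.

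**Figure D4:**
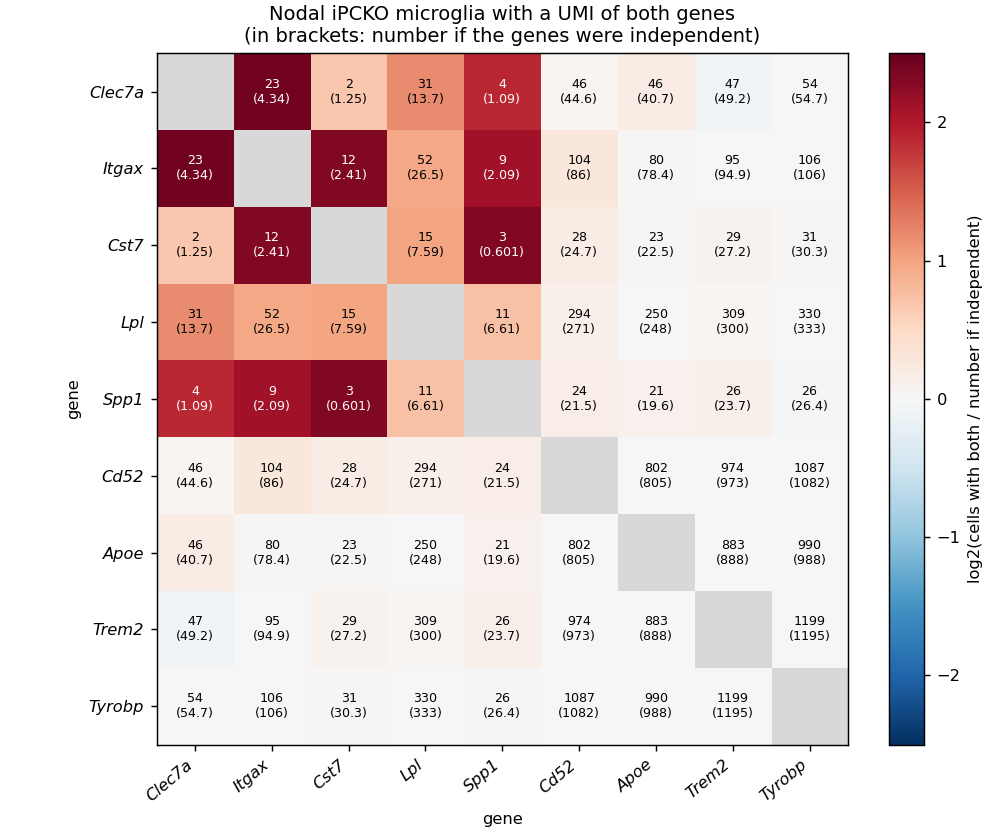
Nodal iPCKO microglia at 3000 UMIs with a UMI of both genes of a pair, and in brackets the number if both were independent. Colour gives the log2 of their ratio, with the gene against itself in grey. Clec7a and Itgax meet in 23 cells against 4.34, Itgax and Cst7 in 12 against 2.41, and all pairs among Apoe, Trem2, Tyrobp and Cd52 lie close to 0. Most cells held each of these last 4 genes, which leaves little room for a higher value.

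The levels of Cd52, Apoe, Trem2 and Tyrobp within these groups of cells differed from each other. In the 12 control and 94 iPCKO microglia with at least 2 of the 6 module genes, Cd52 had 972 and 1883.0 CPM, a log2 ratio of 0.95 (0.46 to 1.49). Apoe had 4138.9 and 1255.3 CPM in the same cells, a log2 ratio of -1.72 (-2 to -1.44), while in cells with none of the 6 it had 857 and 1160.7 CPM, a log2 ratio of 0.44 (0.35 to 0.52). The control value for Apoe rests on 12 cells, of which 2 held at least 3 border macrophage markers and 1 at least 3 fibroblast markers, against 1 and 1 of the 94 iPCKO cells. Summed over the 12 cells, the border macrophage marker Cd163 stood at 278 against 15.5 CPM in control microglia with none of the 6, Mrc1 at 556 against 157 CPM and the fibroblast collagen Col1a1 at 1138.9 against 6.09 CPM. In the iPCKO library Cd163 was at 0 against 7.69 CPM, Mrc1 at 117 against 102 CPM and Col1a1 at 3.55 against 22.4 CPM. The monocyte and neutrophil marker Plac8 was higher there, at 31.9 against 5.24 CPM (9 and 15 UMIs, log2 ratio 2.61, 1.23 to 3.89). Of the 94 iPCKO cells, 0 held at least 3 markers of that class. Before thinning, Apoe had 4069.2 CPM in the 2 control cells with at least 3 markers of either class and 3748.7 CPM in the other 10, beside 1149.3 CPM in the 92 iPCKO cells without them, a split added after the data were seen. Trem2 and Tyrobp had log2 ratios of at most 0.11 in cells with none and with at least 1 of the 6. In cells with at least 2 the ratio was 0.41 (-0.22 to 1.11) for Trem2, at 611 and 812 CPM, and -0.10 (-0.48 to 0.31) for Tyrobp, and both intervals include 0.

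The genes whose pattern was most like that of the module were found by the ratio of cells with at least 2 of the 6 to cells with none, ranked by the smaller ratio of both libraries. Of 8901 genes outside the 10 members with at least 20 UMIs in these cells of each library, 1.34% were at least 2-fold higher in both libraries. Genes of the lists below were ranked apart, and 4 of them stood among the leaders. These were the scavenger receptor Cd36, with a smaller ratio of 3.01, above the 2.5 of Cxcl2 (3.93 in iPCKO, on 6 control and 24 iPCKO UMIs in cells with at least 2 members), the chemokine Ccl6 at 2.38, the inhibitory receptor Lilrb4a at 2 and Lyz2, which encodes lysozyme, at 1.98. The 12 that led outside the lists were Cxcl2, Capg, Ccl9, Kcnj2, Cybb, Tgfbi, Slamf9, Anxa5, Il2rg, Ccl24, Gnptab and Smpdl3a. Cxcl2, a chemokine, had 879 against 155 CPM in iPCKO (248 and 444 UMIs, log2 ratio 2.5, 2.27 to 2.73) and 639 against 60.9 CPM in control microglia (23 and 130 UMIs). Ccl9, another chemokine, had 390 against 80.0 CPM and 500 against 77.8 CPM, with 110 and 18 UMIs in the cells that carried at least 2 members. Cybb, a subunit of the NADPH oxidase, had 323 against 74.8 CPM and 361 against 28.1 CPM. Ccl24, Gnptab and Smpdl3a rested on 2 to 14 UMIs in the cells with at least 2 members, and Kcnj2 on 2 control UMIs, so that the control intervals of Kcnj2 (-0.93 to 4.19) and Gnptab (-1.26 to 3.81) include 0. The control side of this ranking is the same 12 cells in which Cd163, Mrc1 and Col1a1 were high. P2ry12, a purinergic receptor of homeostatic microglia, was at 1737.6 against 3865.1 CPM in iPCKO microglia and 2250.0 against 5451.0 CPM in control microglia.

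The members differed in how far they were restricted to microglia. In the control library 6 and in the iPCKO library 8 of the 10 members were at least 2-fold higher in microglia than in the other 2331 and 3546 cells, where 14.9% of genes were in each library. Trem2 was the most restricted in the control library, at 828 against 1.86 CPM (445-fold), and stood at 634-fold in the iPCKO library. Tyrobp stood at 77.8- and 60.0-fold, Cd52 at 22.0- and 39.9-fold and Itgax at 4.15- and 29.3-fold. Cst7 outside microglia rested on 4 and 1 UMIs, with log2 ratios of 3.92 (2.26 to 5.96) and 8.85 (6.34 to 14.16).

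Among classes of at least 20 cells, Apoe and Spp1 had their highest levels outside microglia. The 8 border macrophage barcodes of each library, at 6897.0 and 10908.9 CPM, and the microglia with border macrophage markers held more Apoe than astrocytes. Astrocytes, the main source of Apoe in the brain, held 5636.9 and 5768.4 CPM of Apoe, and fibroblasts 1134.0 and 1168.4 CPM. Spp1 reached 110 CPM (96 UMIs) in 68 control and 163 CPM (208 UMIs) in 103 iPCKO fibroblasts, above the 8.81 and 18.1 CPM of microglia. Lpl in mural cells was at 122 and 101 CPM, which was above the 105 CPM of microglia in the control library, with overlapping intervals (108 to 137 and 97.4 to 114), and below the 242 CPM of microglia in the iPCKO library. It was found in neurons at 78.0 and 80.6 CPM, and the log2 ratio in mural cells was -0.28 (-0.51 to -0.05) beside 1.20 in microglia. Gpnmb was low in astrocytes too, at 1.64 and 1.61 CPM.

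**Figure D5:**
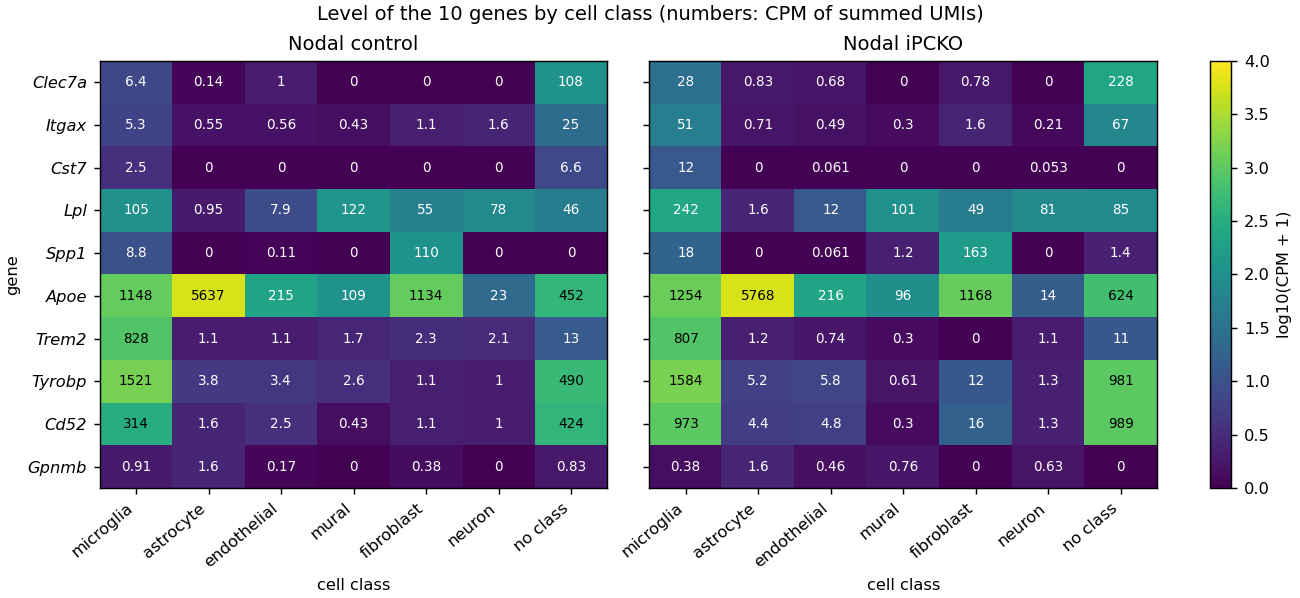
Level of each of the 10 genes in 7 cell classes of the Nodal control (left) and Nodal iPCKO (right) library, as CPM of summed UMIs (numbers) and log10(CPM + 1) (colour). Trem2 is at 828 and 807 CPM in microglia and below 3 CPM in the other 5 named classes, of the classes shown Apoe is highest in astrocytes and Spp1 in fibroblasts, and Clec7a is highest in barcodes without a class.

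Clec7a was higher in some barcodes outside microglia. Barcodes that reached 4 markers of no class, 145 in the control and 211 in the iPCKO library, had 108 and 228 CPM of Clec7a, more than the 6.37 and 28.4 CPM of microglia. The named classes with fewer than 20 barcodes each, described after the data were seen, reached like or higher levels on few cells. The 2 control and 5 iPCKO barcodes with at least 4 monocyte and neutrophil markers had 10 and 21 Clec7a UMIs (493 and 1239.7 CPM) and 40 and 51 Cd52 UMIs (1970.8 and 3010.8 CPM), and the 8 border macrophage barcodes of each library had 3 and 14 Clec7a UMIs (64.5 and 282 CPM). The barcodes of no class held 424 and 989 CPM of Cd52 and 24.9 and 67.3 CPM of Itgax. In the iPCKO library the intervals of these barcodes overlapped those of microglia for Cd52 (918 to 1064.3 against 954 to 992) and for Itgax (49.8 to 89.0 against 46.7 to 55.5). In the control library the intervals of these barcodes lay above those of microglia for Cd52 (374 to 479 against 300 to 328) and for Itgax (13.9 to 41.0 against 3.64 to 7.51). Of these barcodes, 34 and 75 held a Tyrobp UMI, a subset described after the data were seen. They made 1.05 and 1.5% of all barcodes, at a median of 3785 and 3517 UMIs. Their levels were 447 and 522 CPM for Clec7a, 105 and 154 CPM for Itgax, 1542.1 and 2180.9 CPM for Cd52 and 2065.4 and 2243.7 CPM for Tyrobp. Trem2 was low there, at 48.8 and 22.0 CPM against 828 and 807 CPM in microglia, and Spp1 was at 0 UMIs in both. The summed monocyte and neutrophil markers Ccr2, Ly6c2, S100a8, S100a9, Plac8, Chil3 and Lcn2 stood at 3007.4 and 2251.6 CPM in these barcodes and at 11.4 and 10.5 CPM in microglia, although only 2 of 34 and 4 of 75 barcodes held at least 3 of them. The 7 microglia markers summed to 2379.4 and 2033.4 CPM there, against 17291.4 and 13131.3 CPM in microglia, and 14 and 18 of these barcodes held 3 of them. The 34 control barcodes held 64 Clec7a UMIs, more than the 38 of all control microglia, and the 75 iPCKO barcodes 166, against 297 in the microglia of that library.

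Other genes of the program were counted from lists. Of 26 further disease-associated microglia genes, 3 were at least 2-fold higher and 1 was lower in iPCKO microglia, with a median log2 ratio of 0.30 beside -0.06 over all genes. Over all genes 5.42% were 2-fold higher and 5.42% lower. Axl, a receptor tyrosine kinase for phosphatidylserine on dying cells, had 53.0 and 269 CPM, a log2 ratio of 2.34 (2.17 to 2.51). Csf1, the growth factor of macrophages, had 128 and 462 CPM, a log2 ratio of 1.86 (1.75 to 1.97). Lgals3, a galectin of phagocytes, was at 1.16 and 3.44 CPM, and Igf1, the insulin-like growth factor, at 26.8 and 12 CPM, which gives -1.16 (-1.51 to -0.82). The intervals of 16 of the 26 lay above 0 and of 5 below, where 12 and 16.4% of all genes did, shares that depend on the depth of each gene.

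Homeostatic genes outside the microglia rule were lower in 13 of 13 cases by their intervals, with a median log2 ratio of -0.48, and Fcrls, at 589 and 244 CPM, was the one past 2-fold at -1.27 (-1.34 to -1.20). Of all genes, 16.4% had intervals below 0. None of 12 genes of TREM2 and TYROBP signalling and receptor shedding passed 2-fold, beside 5.42% of all genes in each direction. The intervals of 3 of the 12 lay above 0 and of 5 below, where 12 and 16.4% of all genes did. Among the 12, Fcer1g, an adaptor related to Tyrobp, had a log2 ratio of -0.10 and the kinase Lyn -0.07. Of 16 lipid-handling genes with enough UMIs, 1 was at least 2-fold higher and 2 were lower, beside 5.42% of all genes in each direction. Apoc1, an apolipoprotein encoded near Apoe, was at 1.57 (0.85 to 2.36), and the scavenger receptors Cd36 at -1.03 (-1.32 to -0.74) and Msr1 at -1.01 (-1.46 to -0.57) were the lower ones. None of 11 transcription factors of microglia and of lysosomal genes passed 2-fold, beside the same 5.42% of all genes. The interval of 1 of the 11 lay above 0 and of 2 below. Mef2c was at -0.24 and Spi1, which encodes PU.1, at 0.02.

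Enzymatic digestion of tissue can induce immediate-early genes in microglia. None of 13 such genes passed 2-fold between the libraries, and the intervals of 2 lay above 0 and of 6 below, beside 5.42% of all genes past 2-fold in each direction and 12% and 16.4% with intervals above and below 0. Fos had a log2 ratio of 0.26 (0.19 to 0.33) and Fosb 0.30 (0.21 to 0.39), while Jun was at -0.54, Egr1 at -0.49, Jund at -0.30 and Zfp36 at -0.17. Of the 3 lymphocyte markers with enough UMIs in microglia, the chemokine Ccl5 was at 2.99 and 56.1 CPM, Ms4a1 at 18.9 and 12.7 CPM and Cd79a at 1.83 and 2.30 CPM, while Cd3g and Nkg7 had no UMI in either library. Oligodendrocyte lineage markers summed to 223 and 63.6 CPM, with 4 of 7 at least 2-fold lower, where 5.42% of all genes were. Mural markers summed to 272 and 301 CPM, with 5 of 7 at least 2-fold lower and the intervals of 6 below 0, beside 16.4% of all genes. Pdgfrb alone was higher, with 46 control UMIs (7.69 CPM) and 2143 iPCKO UMIs (205 CPM), a log2 ratio of 4.74 (4.32 to 5.2). Only the iPCKO mice carried the Pdgfrb(BAC)-CreERT2 transgene, and its part in the Pdgfrb value was not tested. Endothelial markers summed to 335 and 459 CPM, with none of 7 past 2-fold and the intervals of 5 above 0, beside 12% of all genes. The part of RNA from other cells in the member values was not tested.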

How the data were processed

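The authors prepared the libraries with the BD Rhapsody whole-transcriptome assay and, per their methods, aligned reads and counted UMIs with STARsolo (STAR 2.7.10a) on GRCm39 with Gencode annotation, without a cell filter and with multi-mapping reads shared by expectation maximization. The deposited values are therefore estimated counts of UMIs without normalization, of which 9.08 and 9.21% of entries were fractional. The methods name release vM33 and the data availability statement M26. Totals were 33889545 and 54791946 UMIs, and 40000 cells were loaded per genotype.

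From these tables, barcodes with at least 1500 UMIs were kept. UMIs were summed over cells and divided by all UMIs of those cells (CPM), with exact Poisson 95% intervals. Ratios carry a conditional exact interval and shares a Clopper-Pearson interval (scipy 1.17.1), from counts rounded to whole numbers. Both cover counting error only. In ratios, 3 UMIs stood in for a sum without any UMI. Genes with fewer than 10 UMIs in both libraries together were not counted. Co-detection used cells thinned without replacement to 3000 UMIs. Other classes were named from at least 4 of 7 markers each, and no doublet caller was run. With 1 library per genotype no test was made. The calculations were checked on simulated data. The members and lists were chosen with earlier results of these data known. Named were the 10 members, of each list up to 4 genes past 2-fold with at least 50 UMIs (otherwise the 2 with most UMIs), and the 12 genes most like the module genes, and any gene beyond these, such as Lgals3 or Ccl5, was named after its value was seen. The libraries of lung and the files of barcode parts were not used here.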

Additional observations from a re-analysis of the deposited data

Results flagged for a closer look

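The Lpl values of mural cells and microglia lay in opposite directions between the same libraries. The log2 ratio of iPCKO over control was -0.28 in mural cells, which carry the deletion, with an interval of -0.51 to -0.05 (285 and 331 UMIs), and 1.20 in microglia. It was also above 0 in endothelial cells, at 0.60 (0.20 to 1.02, 70 and 195 UMIs), and in barcodes of no class, at 0.88 (0.21 to 1.58). The share of thinned endothelial cells with an Lpl UMI was 1.24 and 2.88%, and in barcodes with 10 to 99 UMIs, which hold free RNA, Lpl was at 33.8 and 60.2 CPM. The difference between these ratios was not tested, since each genotype had 1 library.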

How the results depend on the processing

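No paired analysis was possible because each genotype had 1 library. The 6 members at least 2-fold higher in iPCKO microglia were the same under 12 of 13 alternatives of the depth minimum, the microglia rule, the cells left out, the scaling and the low-count filter. Without doublet candidates there were 5, since Spp1 stood at 0.97. The 1 member at least 2-fold lower, Gpnmb, became 0 with at least 5 of 7 markers, with the 5-gene microglia rule, without border macrophage-marked, doublet candidate or cycling cells, and at 50 UMIs or more, where it was no longer counted. At that filter 2.33% of all genes were at least 2-fold higher. Log2 ratios ranged from 1.72 (at least 3 of 7 markers) to 3.30 for Clec7a, 3.19 to 3.31 for Itgax, 2.22 to 2.45 for Cst7, 1.17 to 1.25 for Lpl, 0.97 to 1.18 for Spp1, 1.57 to 1.73 for Cd52, 0.11 to 0.43 for Apoe, -0.07 to 0.01 for Trem2 and 0.06 to 0.13 for Tyrobp, and no called direction reversed. The other scalings shifted all ratios by 0.05.

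The share of microglia with at least 2 module genes (1.38% control, 6.75% iPCKO) depends on depth by construction: it was 0 and 3.28% at 1500 UMIs, 3.09 and 13.7% without thinning, and 0.23 and 1.94% for at least 3 genes. The control share was 0.714% without doublet candidates and 0.692% without barcodes over 15% mitochondrial UMIs, each with a new thinning, and 0.805 to 1.38% over 5 other draws of the thinning (iPCKO 6.61 to 7.26%). The control and iPCKO shares were 0.822 and 6.36% with at least 5 of 7 microglia markers. They were 0.836 and 6.08% without border macrophage-marked cells. The iPCKO share stayed above the control share in each alternative. Without thinning, chosen after the data were seen, 148 rather than 119 genes went with the module genes, and at least 3 of 6 was not run for these genes, since 2 control cells qualified. With 32 Itgax, 15 Cst7 and 38 Clec7a UMIs in control microglia, the sizes of their ratios carry wide counting intervals.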

Other observations

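Interferon-stimulated genes were higher beside the disease-associated genes. Of 12, 9 were at least 2-fold higher in iPCKO microglia, beside 5.42% of all genes, with a median log2 ratio of 1.89. Rsad2, an antiviral enzyme also called viperin, had 1.66 and 14.1 CPM (log2 ratio 3.08, 2.16 to 4.17), and Ifit2 and Ifit3 had 2.91 and 2.72. Irf7, the factor that amplifies the interferon response, had 2.33 and 12.7 CPM (2.45, 1.65 to 3.36). In iPCKO microglia with at least 2 module genes, against those with none, Irf7 stood at 35.5 against 9.43 CPM on 10 UMIs (log2 ratio 1.91, 0.7 to 3). Rsad2, Ifit2 and Ifit3 had 1 to 3 UMIs each in these cells, too few to read a direction.

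Cycling genes were higher too, with intervals above 0 for 8 of 8 (12% of all genes) and Ube2c at 1.34 (1.13 to 1.55) and Ccnb1 at 1.03 (0.76 to 1.31). Microglia with at least 3 cycling genes made 5.74% of control and 10.5% of iPCKO microglia. Without them the 6 members stayed at least 2-fold higher. In iPCKO cells Top2a, a topoisomerase of dividing cells, had 230 CPM in microglia with at least 2 module genes and 98.9 CPM in those with none (log2 ratio 1.22, 0.81 to 1.61), and Mki67 had 160 and 90.1 CPM (0.82, 0.33 to 1.29). The intervals of Cdk1, Cenpf, Tpx2 and Ube2c also lay above 0. Those of Ccnb1 (0.44, -0.57 to 1.31) and Birc5 (0.75, -0.04 to 1.45) included 0. Axl had 525 and 189 CPM in the same groups, and Csf1 823 and 343 CPM.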
